A study of Mus musculus with 15 samples.

Results

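Transcript levels of Trp53 and of 6 genes whose products control it were followed in cells from leukemic spleens of mice of 2 genotypes, Eμ-TCL1 and Eμ-TCL1;p53R172H/+. The authors describe these cells as malignant B-cells, but several libraries were low in B-cell markers, as given below. The 7 genes, Trp53, Mdm4, Usp7, Atm, Atr, Chek1 and Chek2, were chosen by name, and each had 1 row in both deposited tables, among 16470 genes in the vehicle table and 16428 in the ibrutinib table. Every mouse carried the TCL1 oncogene under the Eμ enhancer, which directs it to B-cells, on a C57Bl/6 background. The Eμ-TCL1;p53R172H/+ mice also carried 1 Trp53 allele with a point mutation in the DNA-binding domain and 1 wild-type allele. Splenic lymphocytes were isolated by mechanical disruption, with no sorting step described, and were cultured for 24 h with vehicle (DMSO) or with 5 μM ibrutinib, an inhibitor of Bruton's tyrosine kinase. The vehicle table held 3 Eμ-TCL1 libraries (replicates 2, 3 and 4) and 5 Eμ-TCL1;p53R172H/+ libraries (replicates 1 to 5), and the ibrutinib table held 3 Eμ-TCL1 libraries (replicates 1, 3 and 4) and 4 Eμ-TCL1;p53R172H/+ libraries (replicates 1, 3, 4 and 5). The age and sex of the mice were not given, nor was it said that same-numbered libraries came from 1 animal. Values are edgeR-normalized CPM, read counts scaled to library size by the authors, with a separate scaling in each table. No level was therefore tested between DMSO and ibrutinib.

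The p53 protein is a transcription factor that is kept at a low level in unstressed cells, chiefly through the ubiquitin ligase MDM2. MDM4, a relative of MDM2, binds p53 and blocks its transactivation domain, and the deubiquitinase USP7 removes ubiquitin from MDM2, MDM4 and p53. DNA double-strand breaks activate the kinase ATM, which acts through CHK2, while stalled replication forks activate ATR, which acts through CHK1, and these kinases phosphorylate p53 or its inhibitors. Most of this control acts on proteins, which RNA levels do not report.

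Several libraries differed in their cell content, and this bears on every comparison that follows. The summed value of 10 B-cell markers, such as Cd79a, ran from 66.9 to 6079.1. It was 272.9 and 268.4 in Eμ-TCL1;p53R172H/+ replicates 1 and 2 in DMSO, and 66.9 in replicate 1 and 570.2 in replicate 3 in ibrutinib. In these 4 libraries the sum of 10 T-cell markers was between 1221.3 and 3209.3, against 135.6 to 736.1 in the other 5 libraries of the genotype and 91.9 to 443.8 in the 6 Eμ-TCL1 libraries. Of these 4, replicates 1 and 2 in DMSO and replicate 1 in ibrutinib are called T-cell-rich below. Replicate 3 in ibrutinib, at 1221.3, is not among the libraries so called. In the T-cell-rich libraries the sum of 6 natural killer (NK) cell markers was 459.4, 507.7 and 311.3. It was 127.2 in replicate 3 in ibrutinib and at most 62.1 in the other libraries. Cd4, which is among the T-cell markers, was low in the T-cell-rich libraries, at 2.0, 4.4 and 1.5, against 3.0 to 43.7 elsewhere. A pair of Eμ-TCL1 libraries was also low in B-cell markers, at 585.6 in replicate 2 in DMSO and 467.0 in replicate 1 in ibrutinib. These were rich in myeloid transcripts, with Lyz2, which encodes lysozyme, at 7931.4 and 5895.8, and in erythroid transcripts, with sums of 8 erythroid markers of 17901.7 and 15487.5 against at most 264.1 in the other libraries. They are called myeloid-rich. The other 5 libraries in DMSO and 4 in ibrutinib had B-cell marker sums of at least 1000 and are called B-cell-rich. Each of the 7 genes and each list is also given over the B-cell-rich libraries alone, an alternative chosen after the data were seen. The mitochondrial ribosomal RNA mt-Rnr2 ran from 29469.1 to 237191 normalized CPM in DMSO and from 36217.3 to 472072 in ibrutinib. Among the B-cell-rich libraries in ibrutinib it was at 348901 and 53468.3 in Eμ-TCL1 replicates 3 and 4. In Eμ-TCL1;p53R172H/+ replicates 4 and 5 it was at 374599 and 472072. Its part in the other values was not tested. Xist, which is expressed in females, was between 868.7 and 1991.8 in the 6 Eμ-TCL1 libraries, whereas 6 of the 9 Eμ-TCL1;p53R172H/+ libraries expressed the Y-linked Ddx3y at 75.1 to 177.3, so that sex also differed in part between genotypes. In bulk RNA, fewer cells of a type cannot be told apart from less RNA per cell.

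None of the 7 genes passed an adjusted p-value of 0.05 between genotypes in DMSO (limma with Benjamini-Hochberg adjustment over all genes), where 0.0121% of all genes did. None passed it in ibrutinib, where 0.0% of genes did, or in the interaction of genotype and treatment, where 0.0% did. At an unadjusted p-value under 0.05, 1 of the 7 differed in DMSO (Chek2), against 8.17% of all genes, and 1 of the 7 in ibrutinib (Chek1), against 12.0% of all genes. None did so in the interaction, against 0.523% of all genes, in a fit that took the 15 libraries as independent. By direction, Eμ-TCL1;p53R172H/+ was the higher group at 3.52% and the lower at 4.65% of all genes in DMSO at that level, and at 5.69% and 6.32% in ibrutinib. In the interaction these shares were 0.176% and 0.347%. The genotypes did not overlap at 1 of the 7 genes in each table, against 6.45% of all genes in DMSO and 12.7% in ibrutinib. In the higher direction this was so for none of the 7, against 3.52% of all genes in DMSO and 6.68% in ibrutinib. Both checkpoint kinase transcripts had lower means in Eμ-TCL1;p53R172H/+ cells in both tables, and Trp53 had higher means in both.

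**Figure D1:**
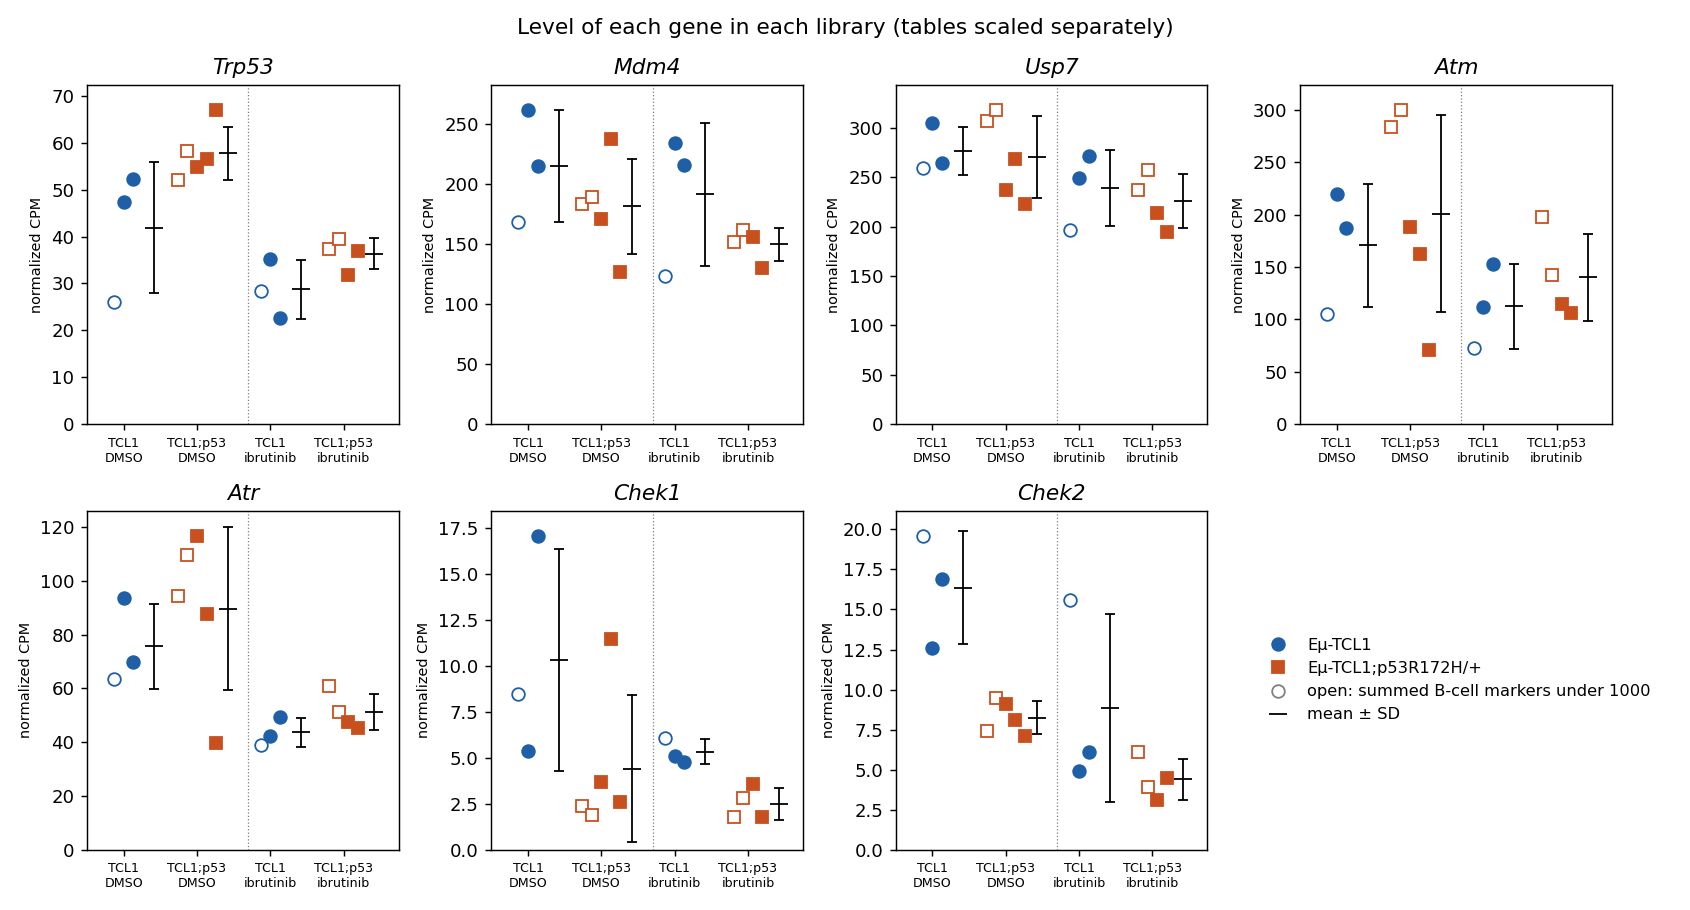
Normalized CPM (linear axis from 0) of each of the 7 genes in each library, by genotype and treatment, with the mean ± SD of each group beside the points. Open symbols are libraries with a B-cell marker sum under 1000. Chek2 in DMSO and Chek1 in ibrutinib are the panels in which all Eμ-TCL1 points lie above all Eμ-TCL1;p53R172H/+ points within a treatment.

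The Trp53 gene (ENSMUSG00000059552) lies on chromosome 11 from 69580359 to 69591873, on the forward strand of GRCm38. In DMSO, its normalized CPM was 26.0, 47.4 and 52.3 in Eμ-TCL1 replicates 2, 3 and 4. In Eμ-TCL1;p53R172H/+ replicates 1 to 5 it was 52.1, 58.3, 54.8, 56.6 and 67.0. The highest Eμ-TCL1 library lay just above the lowest Eμ-TCL1;p53R172H/+ library and below the other 4, and the low Eμ-TCL1 value came from the myeloid-rich library. The difference was 0.51 ± 0.25 on the log2 scale (SE, 95% confidence interval -0.07 to 1.09, limma adjusted p = 0.636), and an exact permutation test of the means gave p = 0.0357 (0.167 after adjustment over 7 genes in 2 tables). Without Eμ-TCL1 replicate 2 the log2 difference was 0.21. Among the B-cell-rich libraries, the values were 47.4 and 52.3 against 54.8 to 67.0, without overlap and with a log2 difference of 0.25, and 16.5% of all genes were higher without overlap in this comparison.

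In ibrutinib, Trp53 was at 28.4, 35.2 and 22.7 in Eμ-TCL1 replicates 1, 3 and 4, and at 37.3, 39.5, 31.8 and 36.9 in Eμ-TCL1;p53R172H/+ replicates 1, 3, 4 and 5. The ranges overlapped, since Eμ-TCL1 replicate 3 exceeded Eμ-TCL1;p53R172H/+ replicate 4. The log2 difference was 0.35 ± 0.19 (SE, interval -0.09 to 0.78, limma adjusted p = 0.498, exact permutation p = 0.0857). It was 0.19 without Eμ-TCL1 replicate 4 and 0.27 among the B-cell-rich libraries, which overlapped. The genotype difference in ibrutinib minus that in DMSO was -0.16 ± 0.31 (interval -0.83 to 0.51, limma adjusted p = 1), and its sign turned in some alternatives. The values do not separate reads of the mutant allele from those of the wild-type allele.

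Mdm4 (ENSMUSG00000054387, chromosome 1 from 132959484 to 133030561, reverse strand) had a high normalized CPM in every library. Not divided by length, it lay between the 91.3 and 97.1 percentiles of the genes found in both tables. In DMSO it was at 168.8, 261.8 and 214.8 in Eμ-TCL1 and at 183.6, 189.6, 170.6, 237.4 and 126.8 in Eμ-TCL1;p53R172H/+. In ibrutinib it was at 123.8, 234.5 and 216.3 in Eμ-TCL1 and at 151.6, 162.2, 156.0 and 130.5 in Eμ-TCL1;p53R172H/+. The groups overlapped in both tables, and in ibrutinib the overlap came from the myeloid-rich Eμ-TCL1 replicate 1. The log2 differences were -0.25 ± 0.25 in DMSO (SE, limma adjusted p = 0.734) and -0.30 ± 0.25 in ibrutinib (limma adjusted p = 0.611). Both depended on single libraries, with -0.097 without Eμ-TCL1 replicate 3 and -0.41 without replicate 2 in DMSO, and -0.13 without replicate 3 and -0.59 without replicate 1 in ibrutinib (limma adjusted p = 0.177 for the last). In DMSO the B-cell-rich libraries overlapped, with a log2 difference of -0.46. Among those in ibrutinib, Mdm4 was at 216.3 and 234.5 against 130.5 and 156.0, with a log2 difference of -0.65 and an unadjusted limma p of 0.0217 (adjusted p = 0.310), and 23.4% of all genes were lower without overlap there.

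Usp7 (ENSMUSG00000022710, chromosome 16 from 8689595 to 8792308, reverse strand) varied least of the 7 genes. Its level in DMSO was 259.7, 304.6 and 265.0 in Eμ-TCL1 and 306.8, 318.2, 236.7, 268.5 and 223.0 in Eμ-TCL1;p53R172H/+, a span of 1.43-fold over all libraries. Its level in ibrutinib was 196.8, 249.3 and 271.6 in Eμ-TCL1 and 237.0, 257.8, 214.0 and 195.0 in Eμ-TCL1;p53R172H/+, a span of 1.39-fold. The groups overlapped widely, and the log2 differences were -0.04 ± 0.21 in DMSO (interval -0.52 to 0.44) and -0.08 ± 0.19 in ibrutinib (interval -0.52 to 0.37). Among B-cell-rich libraries they were -0.23 in DMSO, with overlap, and -0.35 in ibrutinib (limma adjusted p = 0.455), where Usp7 was at 249.3 and 271.6 against 195.0 and 214.0, without overlap. As for Mdm4, 23.4% of all genes were lower without overlap there. Across libraries its log2 values had an SD at the 3.02 percentile of all genes in DMSO and at the 10.1 percentile in ibrutinib.

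Ratios within a library do not depend on how that library was scaled, so the inhibitor transcripts were also set against Trp53. In DMSO, the 3 Eμ-TCL1 libraries had a mean log2 ratio of Mdm4 to Trp53 of 2.40 ± 0.34 (SD) and the 5 Eμ-TCL1;p53R172H/+ libraries one of 1.63 ± 0.43. In ibrutinib it was 2.70 ± 0.56 over 3 libraries and 2.04 ± 0.19 over 4, a difference of -0.66 that was -0.39 without Eμ-TCL1 replicate 4. As geometric means, there were 5.28 and 3.09 units of Mdm4 CPM per unit of Trp53 CPM in DMSO, and 6.52 and 4.13 in ibrutinib. Two-sided exact permutation tests gave p = 0.0536 and p = 0.0571. The ratio of Mdm2 to Trp53 had log2 differences of -0.76 in DMSO (exact permutation p = 0.0893) and -0.68 in ibrutinib (exact permutation p = 0.0571). In DMSO this rested on Eμ-TCL1 replicate 2, without which the difference was -0.19.

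The Usp7 to Trp53 ratio was the 1 ratio of the 5 without overlap, in ibrutinib. It was between 6.93 and 12.0 in Eμ-TCL1 and between 5.28 and 6.73 in Eμ-TCL1;p53R172H/+, a log2 difference of -0.43 with an exact permutation p of 0.0286, the smallest that 35 splits of 7 libraries allow. The groups met closely, at 6.73 and 6.93, and without Eμ-TCL1 replicate 4 the log2 difference was -0.18. Of the 10 ratio tests, none passed adjustment, with a smallest adjusted permutation p of 0.143. The Atm to Atr and Chek1 to Chek2 ratios had exact permutation p-values from 0.554 to 0.946. In all 3 ratios to Trp53, the Eμ-TCL1;p53R172H/+ mean was the lower one in both tables, and these ratios share Trp53 as their denominator. Among B-cell-rich libraries the log2 differences in DMSO and ibrutinib were -0.71 and -0.94 for Mdm4, -0.062 and -0.41 for Mdm2, and -0.48 and -0.63 for Usp7.

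**Figure D2:**
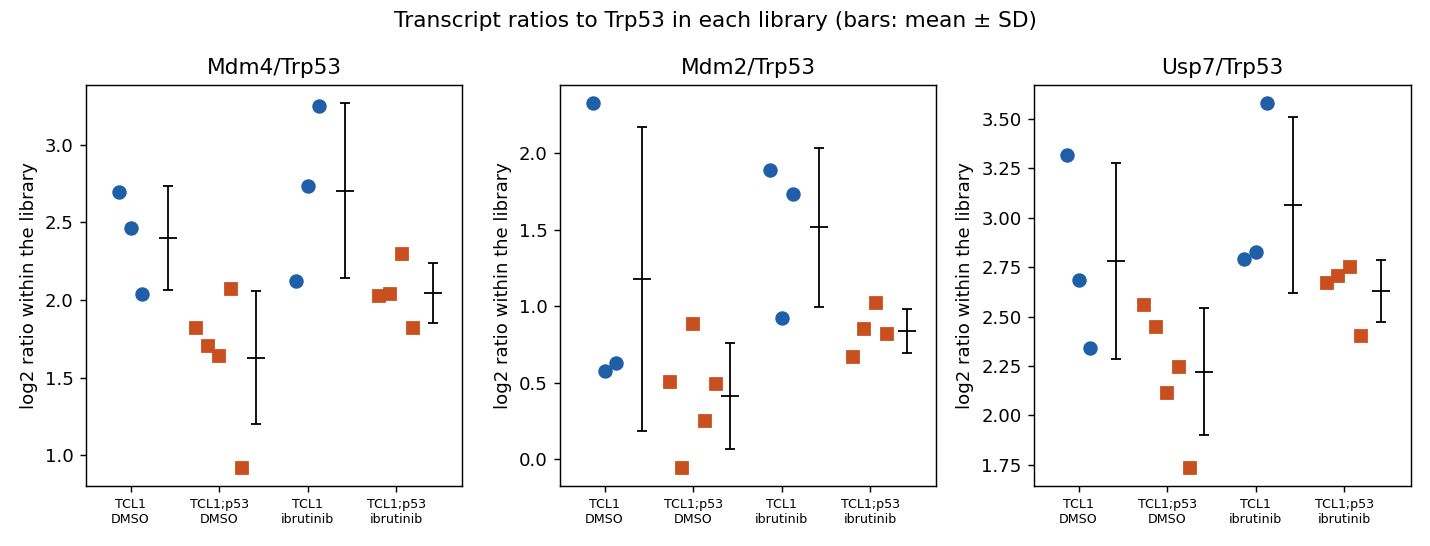
Log2 ratio of Mdm4, Mdm2 and Usp7 to Trp53 within each library (y axis), by group (x axis), with circles for Eμ-TCL1, squares for Eμ-TCL1;p53R172H/+ and the mean ± SD beside them. The Mdm2 panel shows 1 Eμ-TCL1 library in DMSO at 2.33, far above the others at 0.57 and 0.63.

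Atm (ENSMUSG00000034218, chromosome 9 from 53439149 to 53536740, reverse strand) ranged widely within each genotype. In DMSO it was at 105.3, 219.6 and 187.1 in Eμ-TCL1 and at 283.9, 299.8, 187.7, 162.8 and 70.7 in Eμ-TCL1;p53R172H/+, a 4.24-fold span. The highest values belonged to the T-cell-rich replicates 1 and 2, and the lowest to replicate 5 of the same genotype. Atm in ibrutinib was at 72.4, 111.6 and 152.7 in Eμ-TCL1 and at 197.8, 142.7, 114.3 and 105.7 in Eμ-TCL1;p53R172H/+, where the T-cell-rich replicate 1 was again the highest. The log2 differences were 0.14 ± 0.49 in DMSO (limma adjusted p = 0.934) and 0.34 ± 0.32 in ibrutinib (limma adjusted p = 0.646). The latter ran from 0.058 without Eμ-TCL1 replicate 1 to 0.59 without replicate 4. Among B-cell-rich libraries both were negative, at -0.64 ± 0.47 and -0.25 ± 0.21, with unadjusted limma p-values of 0.237 and 0.315. The part of T-cells or NK cells in the level of Atm was not tested.

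Atr (ENSMUSG00000032409, chromosome 9 from 95857597 to 95951781, forward strand) was at 63.5, 93.6 and 69.7 in Eμ-TCL1 and at 94.5, 109.4, 116.7, 87.8 and 39.7 in Eμ-TCL1;p53R172H/+ in DMSO. In ibrutinib its values lay closer together, at 39.0, 42.4 and 49.5 in Eμ-TCL1 and at 60.8, 51.3, 47.5 and 45.4 in Eμ-TCL1;p53R172H/+. The log2 differences were 0.17 ± 0.36 (limma adjusted p = 0.875) and 0.23 ± 0.17 (limma adjusted p = 0.584). In DMSO, leaving out replicate 3 or replicate 5 of Eμ-TCL1;p53R172H/+ gave 0.056 and 0.44. Among B-cell-rich libraries the differences were -0.12 and 0.019, with overlap in both tables. The antisense genes 1700065D16Rik and Gm16794 overlap Atr, and whether reads were counted by strand is not stated. They were at most 0.7 and 3.9. Atm and Atr moved together over the 15 libraries, with a Pearson correlation of 0.87 after centring each table, the highest among the 21 pairs of the 7 genes. Replicate 5 of Eμ-TCL1;p53R172H/+ in DMSO was the lowest library for both kinases and the highest for Trp53.

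Chek1 and Chek2 had the lowest mean normalized CPM, not divided by length, of the 7 genes in each group. Chek1 (ENSMUSG00000032113, chromosome 9 from 36708482 to 36727065, reverse strand), which encodes the kinase that holds the cell cycle when replication is stalled, was at 8.5, 5.4 and 17.1 in Eμ-TCL1 in DMSO. In Eμ-TCL1;p53R172H/+ it was at 2.4, 1.9, 3.7, 11.5 and 2.6. Replicate 4 stood far above the other 4 libraries of its genotype and inside the Eμ-TCL1 range, so the groups overlapped. The mean was 10.3 ± 6.06 over the 3 Eμ-TCL1 libraries (SD) and 4.42 ± 4.01 over the 5 Eμ-TCL1;p53R172H/+ libraries, for a log2 difference of -1.16 ± 0.55 (limma adjusted p = 0.631, exact permutation p = 0.179). Without Eμ-TCL1 replicate 4 it was -0.76, and among the B-cell-rich libraries, which overlapped, -0.85.

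In ibrutinib, Chek1 was at 6.1, 5.1 and 4.8 in Eμ-TCL1 and at 1.8, 2.8, 3.6 and 1.8 in Eμ-TCL1;p53R172H/+. The groups did not overlap, where 5.97% of all genes were lower without overlap in this table, and the exact permutation p was 0.0286, the smallest possible, or 0.167 after adjustment over the 14 tests. By limma, the log2 difference was -0.88 ± 0.26 (interval -1.50 to -0.26) and its adjusted p was 0.313. It kept its sign without any 1 library, from -1.03 to -0.79, and was -0.73 among the B-cell-rich libraries, which did not overlap either (4.8 and 5.1 against 1.8 and 3.6), where 23.4% of all genes were lower without overlap. The difference between the treatments, 0.28 ± 0.65, had an interval from -1.12 to 1.68.

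Chek2 (ENSMUSG00000029521, chromosome 5 from 110839979 to 110874145, forward strand), the effector kinase of ATM, was the gene with the lowest p-value in DMSO. It was at 19.6, 12.6 and 16.9 in Eμ-TCL1 and at 7.4, 9.5, 9.1, 8.1 and 7.1 in Eμ-TCL1;p53R172H/+. All 5 Eμ-TCL1;p53R172H/+ libraries lay below all 3 Eμ-TCL1 libraries, a pattern that 2.93% of all genes shared in this direction. The mean was 16.4 ± 3.53 over the 3 Eμ-TCL1 libraries (SD) and 8.24 ± 1.04 over the 5 Eμ-TCL1;p53R172H/+ libraries. The log2 difference was -0.90 ± 0.25 (interval -1.47 to -0.32, unadjusted limma p = 0.00693, adjusted p = 0.446), and the exact permutation p was 0.0179, the smallest that 56 splits of 8 libraries allow, or 0.167 after adjustment. The adjusted p was 0.0371 with sample quality weights, the 1 alternative in which it passed, and 803 genes passed in that fit. Leaving out any 1 library gave log2 differences from -1.06 to -0.76. Among B-cell-rich libraries Chek2 was at 12.6 and 16.9 against 7.1 to 9.1, with a log2 difference of -0.78, and 16.2% of all genes were lower without overlap there. The part of sex in this difference was not tested.

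In ibrutinib, Chek2 was at 15.6, 4.9 and 6.1 in Eμ-TCL1 and at 6.1, 3.9, 3.1 and 4.5 in Eμ-TCL1;p53R172H/+. Here the ranges overlapped, and the high Eμ-TCL1 value came from the myeloid-rich replicate 1. The log2 difference was -0.74 ± 0.40 (limma adjusted p = 0.498, exact permutation p = 0.0857), and it was -0.29 without that library. Among B-cell-rich libraries Chek2 was at 4.9 and 6.1 against 3.1 and 4.5, without overlap and with a log2 difference of -0.45 (limma adjusted p = 0.559), where 23.4% of all genes were lower without overlap. The genotype differences in the 2 treatments differed by 0.15 ± 0.45, with an interval from -0.82 to 1.13.

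**Figure D3:**
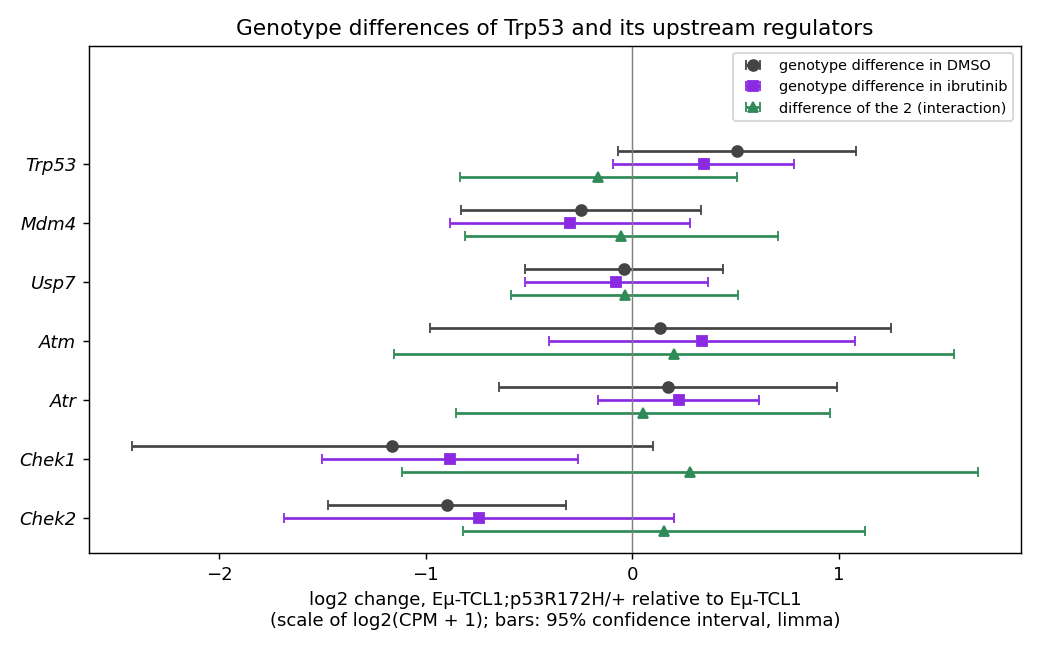
Log2 change of each gene in Eμ-TCL1;p53R172H/+ relative to Eμ-TCL1 (x axis, scale of log2 of normalized CPM plus 1), in DMSO (circles), in ibrutinib (squares) and their difference (triangles), with 95% confidence intervals from limma. Only the intervals of Chek2 in DMSO and Chek1 in ibrutinib leave out 0, before adjustment over all genes.

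The window of 250 bases before the RefSeq start of each gene was searched on both strands for sequences known from cell cycle promoters, because Chek1 and Chek2 were the genes with the lowest p-values. The motifs were the CCAAT box (CCAAT), 2 forms of the cell cycle genes homology region (TTTGAA and TTCGAA) and 3 forms of the E2F site (TTTCGCGC, TTTGGCGC and TTCCCGCC). Chek2 held the CCAAT box on the reverse strand at 186 and at 26 bases before its start. The stretch of this window that no annotated exon covers (GRCm38.p6, chr5:110839778-110839978, forward strand, 201 bases) is shown with both copies in capitals.
Chek2: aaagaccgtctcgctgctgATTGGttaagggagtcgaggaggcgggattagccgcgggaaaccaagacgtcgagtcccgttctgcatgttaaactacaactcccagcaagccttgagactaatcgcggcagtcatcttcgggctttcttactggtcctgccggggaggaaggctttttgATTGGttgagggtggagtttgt
The box is common, since 33.8% of 32851 windows of the same length hold it on either strand. It was also found before Trp53, Usp7 and Atm, while Atr held TTCGAA, which 1.34% of windows hold. None of the 6 letter strings was found in the window of Chek1 or in either window of Mdm4, and no E2F string was found before any of the genes, where 2.48% of windows hold at least 1. By the gene positions given above, the windows of Chek1 and Usp7 and a window of Mdm4 lie inside the gene. The search therefore holds for the RefSeq starts and not for every annotated start.

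Levels of different genes were compared per kilobase, and the order depended on the length used. Over the union of annotated exons, in DMSO, Usp7 was highest, at 35.6 ± 3.16 normalized CPM per kilobase over 3 Eμ-TCL1 libraries (SD) and 34.8 ± 5.38 over 5 Eμ-TCL1;p53R172H/+ libraries. Atm at 16.5 and 19.4, Mdm4 at 14.5 and 12.3 and Trp53 at 10.4 and 14.3 followed, where the first value is that of Eμ-TCL1, and neighbours among these 3 did not differ beyond 1 SD. Chek2 at 5.45 and 2.75, Atr at 3.20 and 3.79 and Chek1 at 2.23 and 0.954 were lowest, so that Chek2 ranked above Atr in Eμ-TCL1 and below it in Eμ-TCL1;p53R172H/+, by more than the SDs in Eμ-TCL1 only. Over the transcript with the longest coding part, Mdm4 moved to first place at 112 and 94.9, since its exon union is 14798 bases long and that transcript 1914. By that length Atr ranked above Chek2 in both genotypes. They were at 9.33 and 7.19 in Eμ-TCL1, within the SDs, and at 11.1 and 3.62 in Eμ-TCL1;p53R172H/+. Chek1 was lowest in all 4 groups by either length.

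Chek1 is expressed more in dividing cells, so the levels of the 7 genes were set against a G2/M score, the mean of 24 genes of mitosis such as Mki67 and Top2a. All 24 of these had a lower mean log2 value in Eμ-TCL1;p53R172H/+ in both tables. In DMSO, 20 of 24 had an unadjusted p under 0.05 (4.65% of all genes in this direction), with a median log2 change of -1.48 against 0.04 over all genes. The ibrutinib table had 23 of 24 such genes (6.32% of all genes), with a median of -1.85 against -0.05. None of them passed adjustment by limma. Among the B-cell-rich libraries, 0 of 24 in DMSO and 4 of 24 in ibrutinib had an unadjusted p under 0.05, with medians of -0.81 and -1.12. Of all genes, 2810 of 16470 in DMSO and 2198 of 16428 in ibrutinib did so there, in either direction. The highest score of each table, 1.54 in DMSO and 2.30 in ibrutinib, was that of the myeloid-rich library, whose erythroid sums are given above, and the part of erythroid or myeloid cells in the score and in Chek1 and Chek2 was not tested.

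Chek1 followed this score. In DMSO, Pearson's r was 0.90 over 8 libraries (exact permutation p = 0.00332, adjusted p = 0.0465 over 14 correlations) and Spearman's rho was 0.93 (exact permutation p = 0.00223, adjusted p = 0.0278). In ibrutinib, r was 0.84 over 7 libraries (exact permutation p = 0.00913, adjusted p = 0.0593) and rho was 0.95 (exact permutation p = 0.00397, adjusted p = 0.0278). Without the 2 libraries farthest from the median score r was 0.94 and 0.99. Without the T-cell-rich libraries it was 0.83 over 6 libraries in DMSO (exact permutation p = 0.050) and 0.82 over 6 in ibrutinib (exact permutation p = 0.0417). In ibrutinib this kept Eμ-TCL1;p53R172H/+ replicate 3, which had a T-cell marker sum of 1221.3. Replicate 4 of Eμ-TCL1;p53R172H/+ in DMSO, the library with Chek1 at 11.5, also had the highest score of its genotype, at 0.45, where the other 4 were between -1.12 and -0.13. Neither genotype has 6 libraries in a table, so the relation was not computed within a genotype, and genotype and score cannot be told apart in ibrutinib, where the scores of the genotypes did not overlap.

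Chek2 had r = 0.84 in DMSO (exact permutation p = 0.0127, adjusted p = 0.0593) and 0.83 in ibrutinib (exact permutation p = 0.0369, adjusted p = 0.103), but without the 2 farthest libraries r was 0.35 and -0.33, so the relation rests on those samples. Trp53 had negative values, -0.67 and -0.75 (exact permutation p = 0.0314 and 0.0442, adjusted p = 0.103 for both), which became -0.32 and -0.58 without the 2 farthest libraries. The other 4 genes had exact permutation p-values between 0.154 and 0.930.

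**Figure D4:**
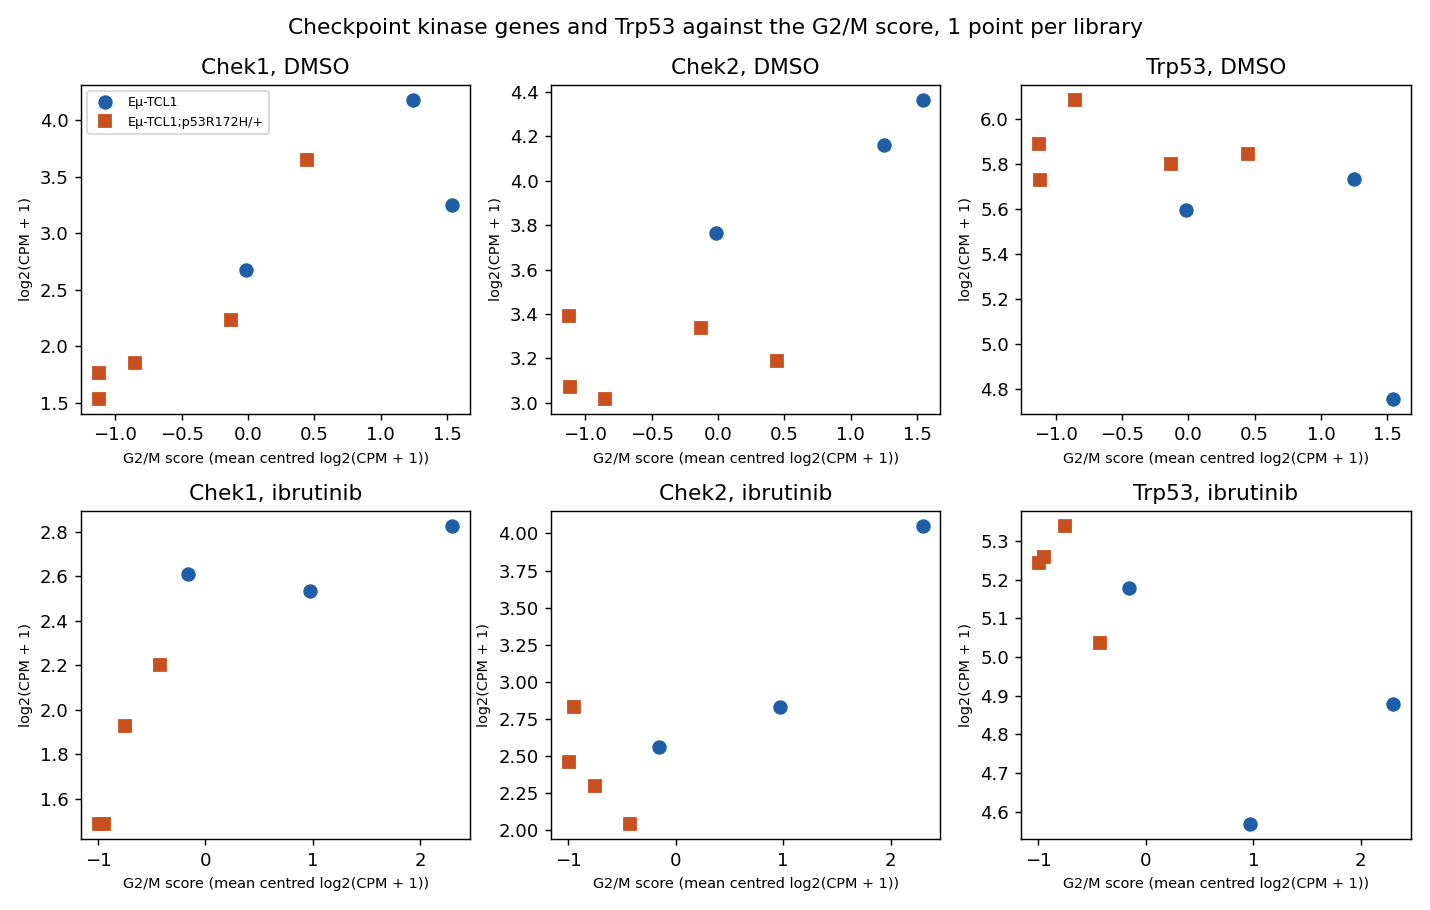
Log2 of normalized CPM plus 1 of Chek1, Chek2 and Trp53 (y axes) against the G2/M score (x axes, the mean of centred log2 values of 24 genes), 1 point per library, in DMSO (top) and ibrutinib (bottom), with circles for Eμ-TCL1 and squares for Eμ-TCL1;p53R172H/+. Chek1 climbs along the score in both rows, while the Chek2 slope depends on the 2 libraries at the right.

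The other genes of the pathway were described by lists, with no test of a list. The counts at an unadjusted p under 0.05 over all libraries are to be read against 3.52% of all genes higher and 4.65% lower in DMSO, and 5.69% and 6.32% in ibrutinib. Counts over the B-cell-rich libraries alone are to be read against 2810 of 16470 genes in DMSO and 2198 of 16428 in ibrutinib, directions together. Genes named as without overlap are to be read against 3.52% higher and 2.93% lower in DMSO, and 6.68% and 5.97% in ibrutinib. The 27 listed partners of ATM and ATR include some that sense breaks or load the kinases on DNA. Among the 27, 1 was higher and 2 were lower at an unadjusted p under 0.05 in DMSO. In ibrutinib 2 were lower, and none passed adjustment by limma in either table. The 2 of 27 that were lower are close to the share of all genes. The median log2 changes were -0.09 and -0.03, and -0.27 and -0.17 among B-cell-rich libraries, where 0 and 1 were lower at that level. Mdc1, a scaffold that binds marked chromatin at breaks, was at 55.1 ± 11.1 in 3 Eμ-TCL1 libraries and 101 ± 31.8 in 5 Eμ-TCL1;p53R172H/+ libraries in DMSO (mean ± SD, in this order below), without overlap (limma adjusted p = 0.545). Brca1, which acts in homologous recombination, was at 41.7 ± 25.8 and 15.6 ± 4.81 in DMSO (limma adjusted p = 0.589). Hus1, a part of the clamp that activates ATR, was at 18.1 ± 4.06 (n = 3) and 10.5 ± 1.98 (n = 4) in ibrutinib, and Rad17, which loads that clamp, at 38.7 ± 3.23 and 28.4 ± 3.38, both without overlap (limma adjusted p = 0.328 and 0.352).

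Of the 6 substrates of the checkpoint kinases, 1 in DMSO and 2 in ibrutinib were lower at an unadjusted p under 0.05, with median log2 changes of -0.49 and -0.64. Among B-cell-rich libraries 1 was lower in each table, and the medians were -0.12 and -0.44. Cdc25a, a phosphatase that drives entry into S phase and is degraded after phosphorylation by CHK1, was at 31.0 ± 11.5 (n = 3) and 13.9 ± 6.52 (n = 5) in DMSO, without overlap (limma adjusted p = 0.588). In ibrutinib it was at 21.8 ± 15.6 and 9.0 ± 1.4, again without overlap (limma adjusted p = 0.402). Cdc25c, a phosphatase of mitotic entry, was at 4.93 ± 2.95 and 1.82 ± 1.33 in DMSO, with overlap (limma adjusted p = 0.629). In ibrutinib it was between 0.5 and 5.8 in Eμ-TCL1 and between 0.0 and 0.3 in Eμ-TCL1;p53R172H/+ (limma adjusted p = 0.346). The G2/M score in DMSO ranged from -0.01 to 1.54 in Eμ-TCL1 and from -1.12 to 0.45 in Eμ-TCL1;p53R172H/+, and its part in these values was not tested.

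Among the 7 inhibitors of MDM2, all had a higher mean log2 value in Eμ-TCL1;p53R172H/+ in DMSO and 6 of 7 in ibrutinib. Their median log2 changes were 0.47 and 0.32, against 0.04 and -0.05 over all genes. Gnl3, which encodes the nucleolar protein nucleostemin, was the 1 with an unadjusted p under 0.05 in each table. It was at 46.5 ± 20.4 (n = 3) and 94.0 ± 28.6 (n = 5) in DMSO (log2 difference 1.06, limma adjusted p = 0.553), and at 16.2 ± 1.87 (n = 3) and 29.6 ± 5.36 (n = 4) in ibrutinib (log2 difference 0.82, limma adjusted p = 0.235), with no overlap in either. Rpl5, a ribosomal protein that binds MDM2, was at 36.9 ± 12.1 and 50.6 ± 7.82 in DMSO (limma adjusted p = 0.645). Among B-cell-rich libraries the medians of the list were 0.16 and 0.06, and 1 of 7 was higher at an unadjusted p under 0.05 in each table. The summed value of the list in DMSO was 230.3 in the myeloid-rich Eμ-TCL1 library. It was 616.3 and 625.7 in Eμ-TCL1 replicates 3 and 4, inside the Eμ-TCL1;p53R172H/+ range of 529.1 to 794.1. In ibrutinib it was 167.3 in the myeloid-rich library, 295.6 and 451.3 in Eμ-TCL1 replicates 3 and 4, and 358.2 to 447.4 in Eμ-TCL1;p53R172H/+.

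The 17 genes listed as ubiquitin ligases and deubiquitinases of p53 included Daxx, which is neither. Of the 17, 2 were higher at an unadjusted p under 0.05 in DMSO. In ibrutinib 1 was higher and 1 lower, counts near the share of all genes. Among B-cell-rich libraries 2 and 1 were higher, and the median log2 changes, 0.19 and 0.10 over all libraries, were 0.09 and 0.04. Herc2, a large ubiquitin ligase, was at 307 ± 10.8 (n = 3) and 444 ± 44.7 (n = 5) in DMSO, without overlap. Stub1, a ligase that works with chaperones, was between 25.7 and 42.0 in Eμ-TCL1 and between 36.1 and 63.3 in Eμ-TCL1;p53R172H/+ (limma adjusted p = 0.608). Stub1 was at 23.2 ± 3.14 (n = 3) and 32.6 ± 5.05 (n = 4) in ibrutinib, without overlap (limma adjusted p = 0.378). Rfwd2, which encodes the ligase COP1, was at 30.3 ± 6.56 and 19.1 ± 2.26 in ibrutinib, without overlap (limma adjusted p = 0.330). Mdm2 itself was at 130.4, 70.6 and 81.0 in Eμ-TCL1 and at 74.0, 56.1, 101.1, 67.4 and 94.0 in Eμ-TCL1;p53R172H/+ in DMSO (limma adjusted p = 0.773). In ibrutinib it was at 105.0, 66.7 and 75.6 in Eμ-TCL1 and at 59.3, 71.1, 64.5 and 65.1 in Eμ-TCL1;p53R172H/+ (limma adjusted p = 0.532). The genotypes overlapped in both tables. Its highest value in each table, 130.4 and 105.0, was in the myeloid-rich library.

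Among 24 enzymes that modify p53, 1 was higher and 2 lower at an unadjusted p under 0.05 in DMSO, and 2 higher and 1 lower in ibrutinib, with medians of 0.17 and -0.09. Among B-cell-rich libraries 2 were higher in DMSO and 1 was lower in ibrutinib, with medians of 0.05 and -0.08. Plk1 and Aurka, mitotic kinases that are also in the G2/M list, were at 12.0 ± 5.82 and 14.3 ± 6.34 in Eμ-TCL1 and at 4.38 ± 1.44 and 6.22 ± 2.53 in Eμ-TCL1;p53R172H/+ in DMSO, with overlap (limma adjusted p = 0.543 and 0.589). In ibrutinib, Prmt5, an arginine methyltransferase, was at 18.9 ± 5.08 and 33.9 ± 7.02, and Dyrk2, a kinase of p53, at 14.6 ± 7.98 and 47.0 ± 22.7, both without overlap (limma adjusted p = 0.306 and 0.313). Of the 5 relatives and cofactors of p53, 3 were listed in the tables, and none had an unadjusted p under 0.05, while 1 was lower at that level among the B-cell-rich libraries in DMSO and 0 in ibrutinib. The lowest p among them was 0.590 in DMSO (Ppp1r13l) and 0.269 in ibrutinib (Ppp1r13b).

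Of 26 target genes of p53, 12 had a higher and 14 a lower mean log2 value in Eμ-TCL1;p53R172H/+ in each table, and the median log2 changes were -0.04 and -0.06. At an unadjusted p under 0.05, 1 was higher in DMSO, and 1 was higher and 1 lower in ibrutinib. Among B-cell-rich libraries 4 were higher and 3 lower in DMSO, and 2 higher and 2 lower in ibrutinib, with medians of -0.02 and 0.05. Bax, which promotes release of cytochrome c, was at 31.4 ± 4.78 (n = 3) and 54.3 ± 13.6 (n = 5) in DMSO, without overlap (limma adjusted p = 0.543). Zmat3 had the next lowest p, at 28.3 ± 13.6 and 41.1 ± 7.26 (limma adjusted p = 0.637). In ibrutinib, Tnfrsf10b, a death receptor, was at 2.13 ± 0.15 and 5.03 ± 2.18, and Eda2r, a receptor of the same family, at 1.87 ± 1.97 and 0.20 ± 0.22 (limma adjusted p = 0.368 and 0.394). The G1/S list had 4 of 22 genes lower at an unadjusted p under 0.05 in DMSO, against 4.65% of all genes, and 0 in ibrutinib, with medians of -0.63 and -0.44. Among B-cell-rich libraries 0 of 22 were lower in either table, as in DMSO without the T-cell-rich libraries, and 1 was higher in ibrutinib. The median among B-cell-rich libraries was -0.53 in DMSO and turned to 0.04 in ibrutinib. Ccne2 and Gins2 had its lowest p-values in DMSO, with log2 changes of -1.99 and -1.33, and Cdc6 and Cdc45 in ibrutinib, with -1.31 and -1.25.

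**Figure D5:**
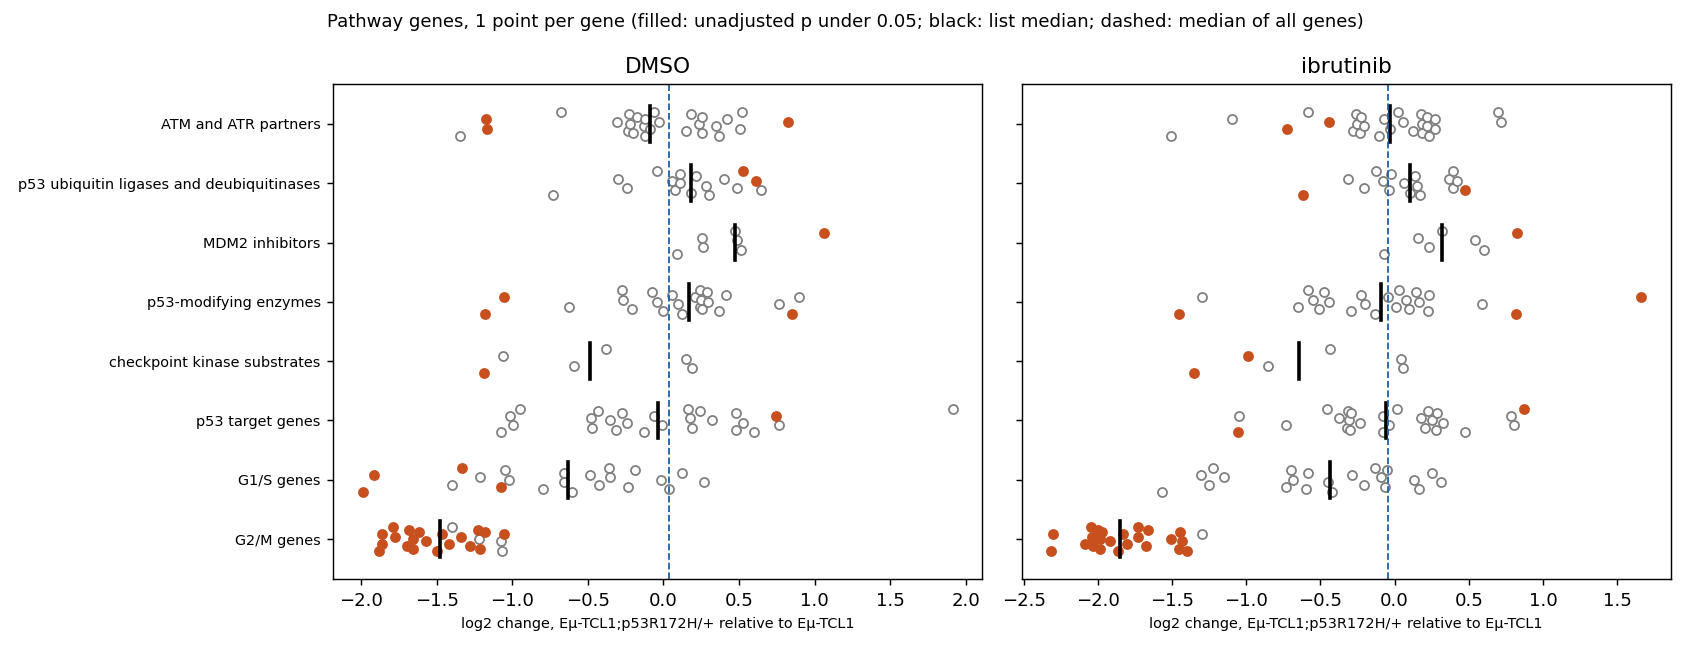
Log2 change in Eμ-TCL1;p53R172H/+ relative to Eμ-TCL1 (x axis) of each gene of 8 pathway lists in DMSO (left) and ibrutinib (right), with filled points at an unadjusted p under 0.05, black bars at list medians and a dashed line at the median of all genes. The median of the G2/M genes lies to the left of the medians of the other lists in both panels, and the p53 targets fall on both sides of the dashed line.

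The transcripts whose pattern was most like each of the 7 were found among 10119 genes, over the 15 libraries on log2 values centred per table. Trp53 was most like Gon4l (r = 0.90), Apopt1 (0.88) and Nat10 (0.88). Mdm4 was most like Setdb2 (0.94), Gm11427 (0.91) and Ttc9c (0.90), and Usp7 was most like Zfp931 (0.88), N4bp2 (0.88) and 5830416P10Rik (0.88). Atm was most like Sf3b1 (0.97), a core splicing factor gene, Papolg (0.96) and Pms1 (0.96). Atr was most like U2surp (0.97), Dhx36 (0.95) and Ssb (0.94). Chek1 was most like Zranb3 (0.92), Fignl1 (0.92) and Xbp1 (0.92), and Chek2 was most like Cdc14a (0.93), Stxbp2 (0.90) and Gtf2e2 (0.90). Among the 7, Mdm4 and Usp7 had r = 0.72, Atm and Usp7 0.76, Chek1 and Chek2 0.54, and Chek2 and Trp53 -0.59. These correlations share the genotype, the cell content and the scaling of the libraries.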

How the data were processed

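RNA of cultured splenic lymphocytes was sequenced by the authors from Illumina libraries, and the submitters' processing notes name TopHat2 2.0.12, SAMtools 0.1.19, HTSeq and edgeR. Reads were counted per gene on GENCODE M2 (GRCm38), and genes under 0.5 CPM were filtered. The signal values in the deposited files are edgeR-normalized CPM, computed by the authors with 1 factor per library set separately in each of 2 tables and rounded to 0.1. Whole reads could not be recovered from this rounding, so depth is unknown, no counting interval is given and no count model was run here. Column sums ran from 756625 to 1359650.

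Values plus a pseudocount of 1 were log2-transformed and fitted with limma 3.58.1 in R 4.3.3 (trend, Benjamini-Hochberg over all genes, threshold 0.05), within each table for genotype and over 15869 shared genes for the interaction, in which the scale of a table cancels. Fold changes of low genes are understated on this scale. Single values, ratios and correlations were tested by two-sided exact permutation in Python 3.11.15 with numpy 2.4.6. Whether libraries come from separate animals is not stated, so p-values measure the spread between these libraries. limma was tested on simulated data.

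The genes, the lists and the tests were chosen with earlier results of these data known. All 7 genes are named with every library. Of each list, up to 2 genes with the lowest p per table are named where none passed adjustment, Mdm2 always, and for each of the 7 the 3 most similar genes with a mean of at least 5 in each table. Alternatives were pseudocounts of 0.1 and 5, only genes with a mean of at least 5 (which left Chek1 out in ibrutinib), each library left out, the replicate number as a block, weights for sample quality, quantile normalization, removal of the T-cell-rich libraries (Eμ-TCL1;p53R172H/+ replicates 1 and 2 in DMSO and 1 in ibrutinib) and, chosen after seeing the data, B-cell-rich libraries only and the score correlations without the T-cell-rich libraries. Positions and exon lengths are from GENCODE M21 on GRCm38, and promoter windows from RefSeq GRCm38.p6, in which all 7 genes matched. The sequence around the mutated codon of Trp53 is not shown here.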

Additional observations from a re-analysis of the deposited data

Results flagged for a closer look

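Chek1 in Eμ-TCL1;p53R172H/+ replicate 4 in DMSO, at 11.5 normalized CPM, stood apart from the other 4 libraries of its group, which were between 1.9 and 3.7. Its gap to the nearest library took up 0.813 of the range of the group on this linear scale, above the critical value of 0.71 for 5 libraries. As log2 of the value plus 1, it was at 3.64 and the other 4 were between 1.54 and 2.23. On that scale the gap takes up a smaller part of the range, below the critical value. The 7 genes were examined in the groups with 4 or 5 libraries, which makes 14 groups, and chance flags about 1 in 20. The same library had the highest G2/M score of its group (0.45), and a B-cell marker sum of 4506.2.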

How the results depend on the processing

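No gene passed adjustment between genotypes under any alternative except Chek2 in DMSO with sample quality weights (count 1 instead of 0). The log2 differences of Trp53, Mdm4, Chek1 and Chek2 between genotypes kept their sign in both tables under all alternatives. Leaving out 1 library moved that of Trp53 between 0.21 and 0.70 in DMSO and between 0.19 and 0.50 in ibrutinib. Depth is unknown, groups are small, and the intervals of the interactions span both directions for all 7 genes. The cause of the reversals below was not tested.

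With sample quality weights the log2 value was -0.38 for Atm in DMSO, 0.16 for the Trp53 interaction and -0.0069 for the Atr interaction. Quantile normalization gave 0.10 for Usp7 in ibrutinib and interactions of 0.20 for Mdm4 and 0.26 for Usp7. Without the T-cell-rich libraries the values were -0.33 for Atm and -0.0067 for Atr in DMSO, 0.085 for the Usp7 interaction, 0.056 and 0.019 for the Chek1 to Chek2 ratio in DMSO and ibrutinib, and score correlations in DMSO of 0.39 for Usp7, 0.23 for Atm and 0.13 for Atr. Among B-cell-rich libraries they were -0.64 for Atm and -0.12 for Atr in DMSO, -0.25 for Atm and -0.27 for the Atm to Atr ratio in ibrutinib, and 0.021 for the Trp53 interaction. Without the 2 libraries farthest from the median score, correlations were 0.18 for Atr in DMSO, and 0.86 for Mdm4, 0.36 for Usp7 and -0.33 for Chek2 in ibrutinib.

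Leaving out 1 library gave ranges that crossed 0 for Atm (-0.18 to 0.47) and Usp7 (-0.10 to 0.031) in DMSO and Usp7 (-0.21 to 0.021) in ibrutinib. For the interactions they were -0.35 to 0.14 for Trp53, -0.34 to 0.12 for Mdm4, -0.17 to 0.061 for Usp7, -0.13 to 0.52 for Atm, -0.21 to 0.17 for Atr, -0.13 to 0.64 for Chek1 and -0.14 to 0.61 for Chek2. For the Atm to Atr ratio they were -0.24 to 0.11 in DMSO and -0.095 to 0.27 in ibrutinib, and for Chek1 to Chek2 -0.69 to 0.019 in ibrutinib. For score correlations in ibrutinib they were -0.30 to 0.78 for Mdm4, -0.43 to 0.63 for Usp7 and -0.78 to 0.049 for Atm. The r of Chek1 with the score stayed between 0.83 and 0.97 in DMSO and between 0.82 and 0.99 in ibrutinib. The Usp7 to Trp53 ratio in ibrutinib had an exact permutation p of at least 0.0667 under every alternative run. Each of these has fewer libraries, whose splits allow no smaller p, so these p-values cannot show whether the result holds.

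With the replicate number as a block, the log2 difference of Trp53 was 0.48 in DMSO and 0.34 in ibrutinib, the interaction was 0.15, and no gene of the 7 passed adjustment. The numbers were not taken as pairs: deviations of same-numbered libraries of the 2 genotypes correlated at 0.032 to 0.29 in DMSO and at -0.20 to -0.046 in ibrutinib, and those of the 2 treatments at 0.83 to 0.84 in Eμ-TCL1 and at 0.75 to 0.80 in 3 pairs of Eμ-TCL1;p53R172H/+, but at -0.11 in replicate 3, where Ddx3y was at 0.1 in DMSO and 82.1 in ibrutinib. The myeloid-rich Eμ-TCL1 libraries, replicate 2 in DMSO and replicate 1 in ibrutinib, have different numbers and correlated at 0.90. The interaction fit without the block took all 15 libraries as independent. If libraries of the 2 treatments share animals, its standard errors are overstated. Genes with an unadjusted p under 0.05 numbered 970 of 16470 with the block and 1346 without it in DMSO, 1490 and 1973 in ibrutinib, and 802 and 83 in the interaction. With sample quality weights 803 genes passed adjustment in DMSO against 2, and 28 in ibrutinib against 0.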
